A study of Mus musculus with 16 samples.

Results

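The genes described here are 61 of 11481 measured in mouse embryonic fibroblasts, and they are genes that trichostatin A lowered strongly in each of 4 cell lines. They were chosen on measured values. A gene was taken when its signal was at least 200 on 2 or more arrays and log2(signal + 50) was at least 1 lower on the trichostatin array than on the vehicle array of each line. Where a gene had several probe sets, the one of highest mean was used. Of 71 genes that met this, 10 were set aside by symbol: Zfp469, Zfp644, Zfp518b, Zfp827, Zfp618, Hoxb2, Crebbp, Epc2, Cxcl5 and Clcf1. The signal limit and the choice of probe set used all 16 arrays, while the trichostatin change used 8. Those 8 are given as a description, and tests were run on the 8 other arrays, on which the cells also received dipyridyl.

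The fibroblasts were primary cultures from e14.5 embryos, infected at passage 3 with an adenovirus that carries the Cre recombinase and then expanded at least 100-fold. All 4 lines received Cre. Line flox1 was CBP +/flox and line flox2 was p300 +/flox, and these are called control lines. Line triCH1flox1 was CBP CH1/flox;p300 CH1/CH1 and line triCH1flox2 was CBP CH1/CH1;p300 CH1/flox, where CH1 marks an allele altered in the CH1 domain of CBP or p300. Each line was treated with ethanol vehicle (EtOH), with 100 ng/ml trichostatin A (TSA), with 100 µM dipyridyl (DP), or with TSA and 30 min later DP, and was lysed for RNA after a further 3 h. The 16 samples were each hybridised to 1 array, so a line stands for 1 genotype and there were no replicate cultures. The p-values therefore rest on differences between the lines and hold no spread between cultures of 1 line. The variance of each gene was also drawn towards that of other genes, in the main test with 3 residual and 13.9 prior degrees of freedom. The array reads pooled RNA of a culture, so fewer cells with a transcript and less transcript per cell cannot be told apart.

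TSA blocks class I and class II histone deacetylases, the enzymes that remove acetyl groups from histones and other proteins, and acetylation of histones therefore rises within hours. Deacetylase inhibitors are best known for raising transcripts, but many transcripts fall in the same cells. CBP and p300 are histone acetyltransferases that act as coactivators. Dipyridyl chelates iron, which the prolyl hydroxylases that mark the hypoxia-inducible factor for destruction need, and it therefore mimics hypoxia.

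Median signal per array ranged from 103 to 154, and 36.8% to 42.6% of probe sets had a signal of at least 200. Of 14 fibroblast markers, 13 had a signal of at least 200 on all 16 arrays, and none of the markers of macrophages (9), endothelium (8), epithelium (8), skeletal muscle (7) or erythroid cells (3) did. Among 7 neural markers 1, Nes, did. On at least 1 array a signal of 200 was reached by 6 macrophage, 1 endothelial, 5 epithelial, 3 skeletal muscle, 4 neural and 0 erythroid markers. The brightest macrophage and epithelial markers, Csf1r and Epcam, had mean signals of 259 and 464. The part of such cells in the results was not tested. On the flox1 vehicle array Gapdh control probes gave 2.59 times as much signal at the 3′ end as at the 5′ end, and actin probes 2.07 times as much. The other arrays reached at most 1.26 and 1.63. This array helped to choose the members, and 109 genes would have been chosen without line flox1, against 80 without flox2, 83 without triCH1flox1 and 86 without triCH1flox2. The mean signal of the small ribosomal RNA controls was 9280 on this array and 8257 on the flox2 DP array, against at most 3713 elsewhere. Array identifiers in the labels form 2 series, and the first holds the triCH1flox1 arrays with TSA, DP and both agents and the flox2 array with both.

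The first question was whether the members were also low with TSA when DP was present. They were: with TSA then DP, 60 of 61 members passed the test as lower than with DP alone, and 0 as higher (limma, Benjamini-Hochberg adjusted p under 0.05 over all genes tested). Among all 11481 genes, 14.4% were called lower and 20.7% higher. With the arrays centred on their median gene, 2158 genes were lower and 1886 higher instead of 1649 and 2371. Without line flox2, whose DP array had the high ribosomal signal, 58 members were called. All 4 TSA then DP values lay below all 4 DP values in 58 members, against 9.90% of all genes. A fall of at least 1 on the log2 scale in each of the 4 lines recurred in 31 members, against 0.723% of all genes. Of the 83 genes at that limit with DP, 37 were also among the 71 at it without DP, which is 44.6% of the former and 52.1% of the latter.

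The median change of the members, TSA then DP minus DP on the log2(signal + 50) scale, was -1.25 in flox1, -1.29 in flox2, -1.49 in triCH1flox1 and -1.53 in triCH1flox2. This is a 2.62-fold fall on average (mean of the 4 medians -1.39, SD 0.139), while the same median over all genes was 0.03. The members were thus lower in each of the 4 lines, and the DP and TSA then DP arrays were of 1 identifier series in 3 of them. In flox2 these arrays came from both series. With the series as a term, so that the change rests on the other 3 lines, 58 members were called lower and Armc5, Eva1a and Thap1 were not. The change that chose the members had medians of -1.51, -1.63, -1.59 and -1.51 in the same order of lines. Both sets of arrays come from the same lines, so the DP arrays repeat the measurement in these cells and not in other cells.

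**Figure D1:**
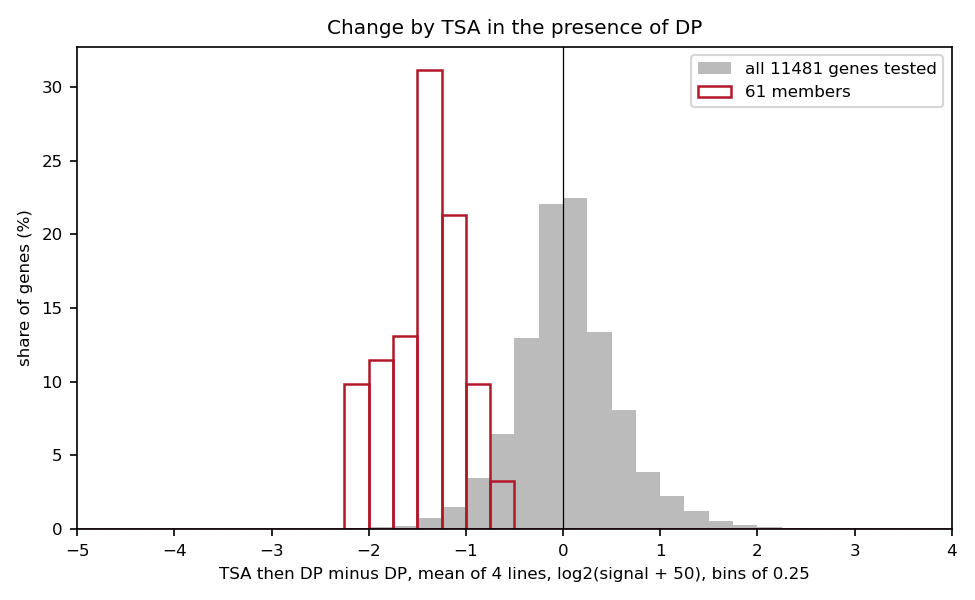
Share of genes (%) by their change with TSA then DP minus DP, the mean of 4 lines on the log2(signal + 50) scale in bins of 0.25, for all 11481 genes tested (grey) and the 61 members (red outline). All members lie below 0, between -2.19 and -0.63, while the genes as a whole centre near 0.

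Signals of different probe sets do not rank transcripts, so a high or low signal is said here of the array reading only. The members' mean signal on the 4 EtOH arrays ran from 256 to 9272 with a median of 1260, and the median over all genes tested was 627. All 61 had a signal of at least 200 on all 4 DP arrays. On the TSA then DP arrays, 42 members were at or above 200 on all 4 arrays and 19 fell under it on at least 1. The added 50 makes a measured fall smaller than the ratio of the signals, most strongly at low signals. Fgf7, for example, changed by -2.16 with 50 added and by -2.26 with 16 added. Fold falls in the text are taken from the change of log2(signal + 50).

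**Figure D2:**
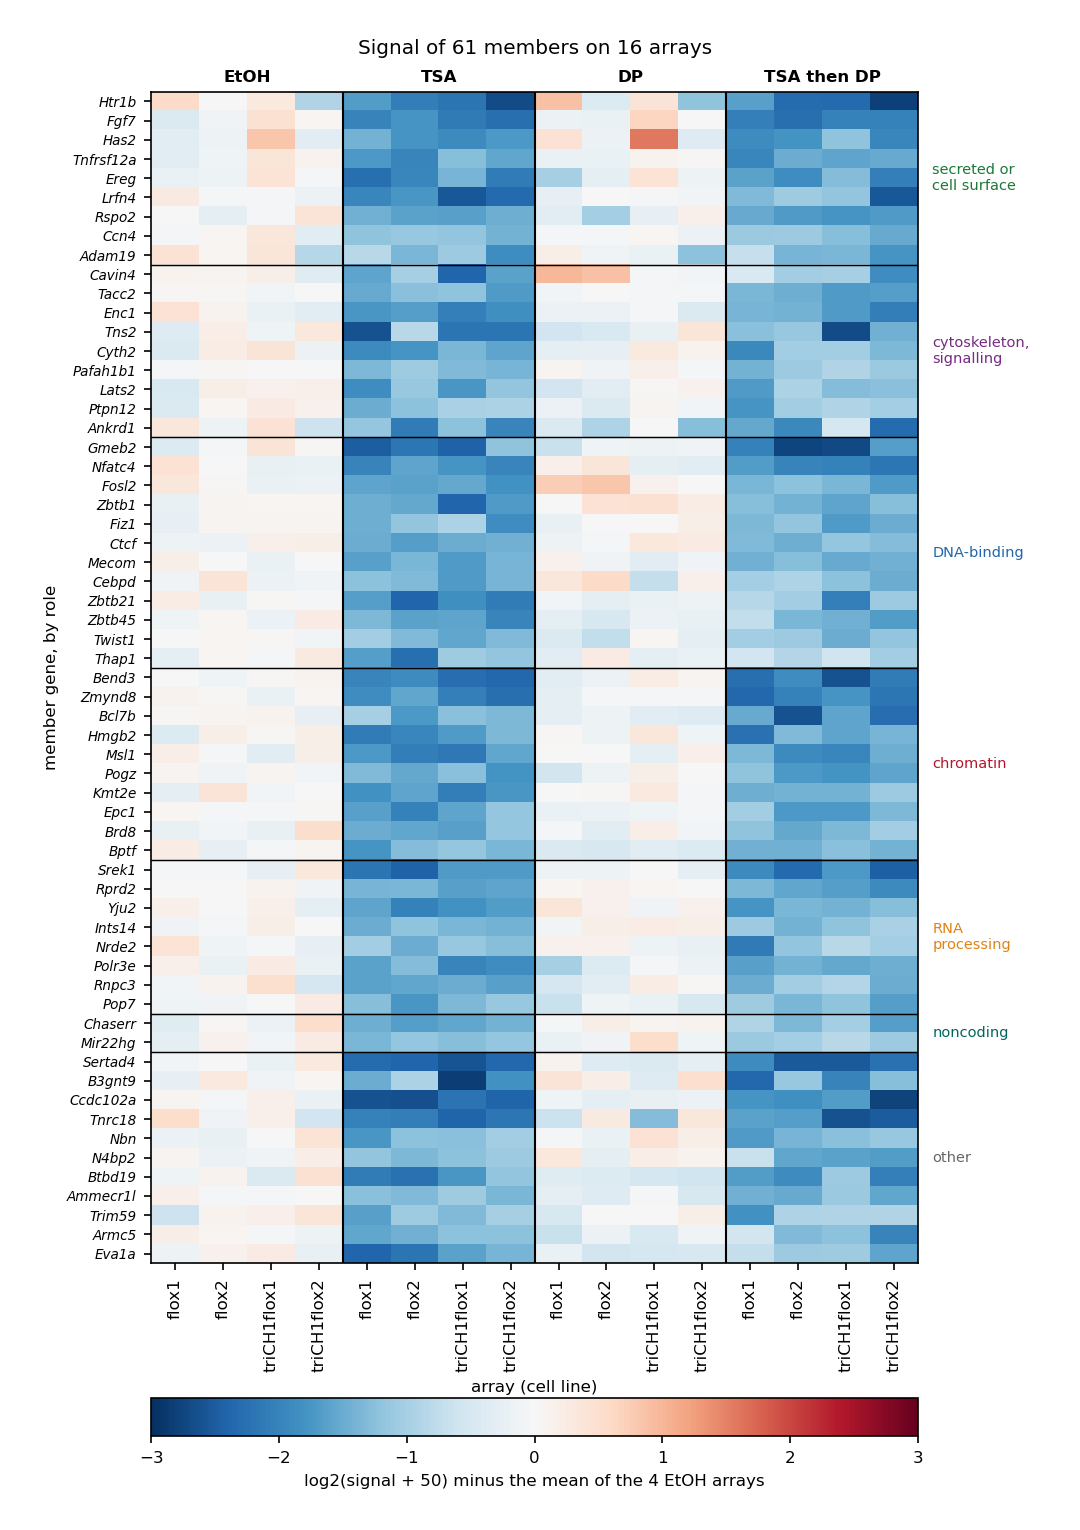
Log2(signal + 50) of the 61 members (rows, by role) on 16 arrays (columns, 4 lines under each of 4 treatments), less the mean of the 4 EtOH arrays of the gene. The TSA and TSA then DP columns are mostly blue (lower), and the DP columns stay near the vehicle level, with a median change of -0.10.

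The members were sorted by the known role of their product, an assignment made after the members were seen. Signals are given below in the order flox1, flox2, triCH1flox1 and triCH1flox2. The 9 genes of secreted or cell surface proteins were Htr1b, Fgf7, Has2, Tnfrsf12a, Ereg, Lrfn4, Rspo2, Ccn4 and Adam19. Their median change with TSA then DP minus DP was -1.45 (range -2.19 to -0.97), and all 9 passed the test as lower.

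Htr1b, a serotonin receptor that lowers cyclic AMP, had the largest fitted fall of the members on this scale with the probe set of highest mean. With a pseudocount of 16 the falls of Gmeb2 (-2.66) and Bend3 (-2.40) exceeded that of Htr1b (-2.29), and with the mean of all passing probe sets Htr1b changed by -1.44. On the DP arrays its signals were 3466, 1391, 2436 and 773, and with TSA then DP they were 563, 334, 327 and 222. The change was -2.19 on the log2 scale (SE 0.164, n = 4 lines, adjusted p = 3.52e-08), a 4.55-fold fall. In a limma fit with no variance trend the adjusted p was 0.00528. On the choosing arrays the signals of Htr1b had been 2789, 1873, 2299.6 and 976 with vehicle and 547, 404, 365 and 246 with TSA. The lines differed in level with flox1 highest and triCH1flox2 lowest under all 4 treatments, and the DP and TSA then DP groups did not overlap. Fgf7, the keratinocyte growth factor that mesenchymal cells make for epithelia, had DP signals of 1528, 1507, 2749.7 and 1707. With TSA then DP its signals were 377, 321, 388 and 388, a 4.47-fold fall (-2.16, SE 0.140, adjusted p = 7.44e-09). The triCH1flox1 line was highest on the DP arrays, and the 4 values with both agents lay close together. A second probe set of Fgf7 changed by -2.02, and a second one of Htr1b, with a mean signal near the limit of 200, by -0.69.

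The promoters of both genes, and that of Srek1, of the RNA processing group, are shown. The choice took members with 1 promoter entry and left out those on 1 chromosome. It then kept the 3 with the largest fitted falls, with the probe set of highest mean. Some members with larger falls than Srek1 (-1.97), such as Bend3 (-2.15), are therefore not shown. They are windows of 300 bases from RefSeq (GRCm38.p6), 250 before and 50 after the start, read along the gene's strand. Capitals mark matches to any of 8 short motifs searched on both strands: the GC box as GGGCGG, the box named for its letters CCAAT, the TATA box as TATAAA, the core of the CRE as TGACG, the site of AP-1 as TGANTCA, the E-box as CACGTG, the site of ETS factors as CCGGAAG and the core of the NRF1 site as GCGCATGC.
Htr1b, chr9:81633783-81634082, minus strand: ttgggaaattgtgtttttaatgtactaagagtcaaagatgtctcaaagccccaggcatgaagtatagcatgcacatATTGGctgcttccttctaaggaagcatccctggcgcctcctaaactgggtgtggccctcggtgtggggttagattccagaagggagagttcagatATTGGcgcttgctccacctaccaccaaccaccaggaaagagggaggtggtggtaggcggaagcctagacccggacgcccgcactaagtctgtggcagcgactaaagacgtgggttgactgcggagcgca
Fgf7, chr2:126034408-126034707, plus strand: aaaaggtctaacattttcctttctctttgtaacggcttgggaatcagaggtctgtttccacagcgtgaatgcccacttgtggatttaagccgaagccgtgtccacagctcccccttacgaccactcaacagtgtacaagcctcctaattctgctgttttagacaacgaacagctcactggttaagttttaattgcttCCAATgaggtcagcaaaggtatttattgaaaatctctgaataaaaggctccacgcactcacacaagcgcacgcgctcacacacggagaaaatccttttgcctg
Srek1, chr13:103774559-103774858, minus strand: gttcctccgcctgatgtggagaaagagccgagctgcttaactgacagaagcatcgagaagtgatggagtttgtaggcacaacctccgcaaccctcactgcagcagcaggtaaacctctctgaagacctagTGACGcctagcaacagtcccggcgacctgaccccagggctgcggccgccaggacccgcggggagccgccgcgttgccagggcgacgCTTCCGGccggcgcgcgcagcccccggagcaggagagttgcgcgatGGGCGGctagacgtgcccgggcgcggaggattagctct
The Htr1b window held 2 CCAAT motifs, both on the opposite strand and so printed as ATTGG, and the Fgf7 window held 1. CCAAT occurs in 37.4% of all 32851 promoters of this length. The Srek1 window held 1 GC box (35.7% of promoters), 1 CRE core (20.8%) and 1 ETS motif on the opposite strand (8.86%). None of the 8 motifs was found in all 3 windows. With 11, 11 and 29 CpG dinucleotides and a GC content of 53.3%, 45.7% and 65.7%, Srek1 stood above the upper quartile of all promoters (20 CpG, 61.7% GC), while the other two did not. Promoter sequences were matched for 45 of the 61 members (73.8%), too few for a comparison of the set with other genes, which was therefore void.

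Has2, which makes hyaluronan at the cell surface, had DP signals of 1519, 970.0, 3401 and 833 and signals of 262, 283, 456 and 247 with TSA then DP. The DP level was highest in triCH1flox1 and lowest in triCH1flox2, and all lines were lower with both agents (-2.07, SE 0.179, adjusted p = 1.67e-07). Tnfrsf12a, the receptor of the cytokine TWEAK, had DP signals of 3571, 3559, 4416 and 4189. With both agents its signals were 1015, 1429, 1330.3 and 1419, all below the DP values (-1.57, SE 0.0946, adjusted p = 3.71e-09). Ereg, a ligand of the epidermal growth factor receptor, went from 763, 1277, 2109 and 1393 to 478, 395, 604 and 340.2 (2.74-fold lower, adjusted p = 4.79e-06). Its smallest fall was in flox1, where the DP level was the lowest.

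Rspo2, a secreted enhancer of Wnt signalling, had mean signals of 2553 ± 821 with DP and 959 ± 78.3 with TSA then DP (± SD, n = 4), a 2.48-fold fall. The mean of its passing probe sets fell 1.93-fold. Ccn4, a matricellular protein induced by Wnt signalling, went from 4120.1 ± 278 to 1779 ± 239.8 (2.29-fold lower). Adam19, a membrane-bound metalloprotease, fell 1.95-fold (adjusted p = 1.43e-05). It was 1 of 3 members with overlapping groups: its signals were 2301, 1871, 1758 and 834 with DP and 1245, 743, 748 and 555 with both agents, and the flox1 value with both agents exceeded the triCH1flox2 value with DP. Within each line the fall of Adam19 was present.

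**Figure D3:**
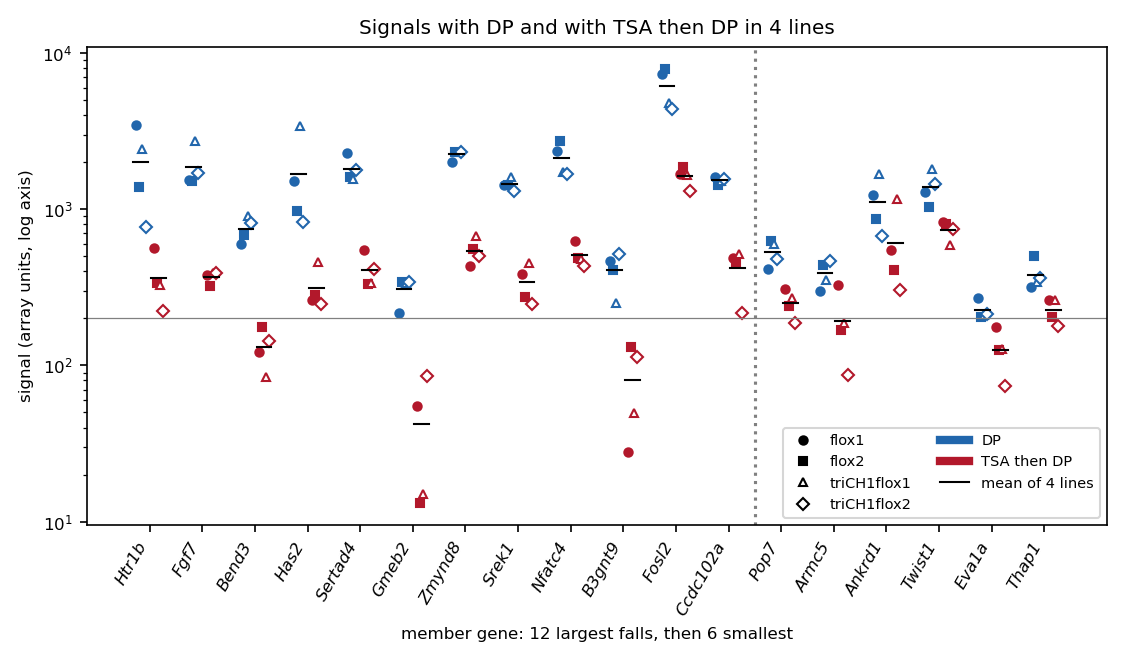
Signals (log axis) on the DP arrays (blue) and the TSA then DP arrays (red) for the 12 members with the largest and the 6 with the smallest fall. Each symbol is 1 line, black bars are means of 4 lines and the grey line is a signal of 200. The groups stand apart in all of them but Armc5 and Ankrd1.

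The 9 members of the cytoskeleton and of cytoplasmic signalling were Cavin4, Tacc2, Enc1, Tns2, Cyth2, Pafah1b1, Lats2, Ptpn12 and Ankrd1. All 9 passed as lower, with a median of -1.31 (range -1.52 to -0.91). Enc1, an actin-binding protein of the kelch family, had DP signals of 3625, 3625, 3927 and 3034 and signals of 1523, 1488, 1224 and 933 with TSA then DP (2.72-fold lower, adjusted p = 1.06e-08). Lats2, the Hippo pathway kinase that restrains the coactivators YAP and TAZ, went from 1635, 1961, 2526 and 2688 to 721, 1236, 966 and 999 (2.18-fold lower, adjusted p = 1.69e-06). The mean of its passing probe sets fell 1.92-fold. Ptpn12, a tyrosine phosphatase of focal adhesions, had means of 3786 ± 561 and 1871 ± 464, a 2.03-fold fall. Ankrd1, a nuclear ankyrin repeat protein whose gene is a target of YAP, had among the smallest falls of the members. Its DP signals were 1239.5, 863, 1669.8 and 674 and its signals with both agents 551, 406, 1164 and 305 (-0.91, SE 0.137, adjusted p = 6.14e-05). The triCH1flox1 signal of Ankrd1 with both agents exceeded the flox2 and triCH1flox2 signals with DP, so the groups overlapped. Each line was lower with both agents, and without the line term its adjusted p was 0.0831. Cavin4, a coat protein of caveolae, is described with the effect of DP.

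The 12 transcription factors and DNA-binding proteins were Gmeb2, Nfatc4, Fosl2, Zbtb1, Fiz1, Ctcf, Mecom, Cebpd, Zbtb21, Zbtb45, Twist1 and Thap1. All 12 were called lower (median -1.36, range -2.02 to -0.63). Fosl2, an AP-1 subunit also called Fra-2, had DP signals of 7348, 7924, 4798 and 4347 and signals of 1667, 1855, 1663 and 1314 with TSA then DP, a 3.58-fold fall (SE 0.0982 on the log2 scale, adjusted p = 1.47e-09). On the choosing arrays it had 5556, 4486, 3859 and 3908 with vehicle and 1434, 1403, 1474 and 1221 with TSA. The mean of the passing probe sets of Fosl2 fell 2.54-fold with TSA then DP against DP. Nfatc4, a factor driven by calcium and calcineurin, had 2350.3, 2715, 1733 and 1690.2 with DP and 627, 485, 483 and 435 with both agents (3.85-fold lower, adjusted p = 6.61e-09), and the mean of its passing probe sets changed by -1.35. Zbtb1, a zinc finger repressor of the BTB family, went from 1049 ± 152 to 295 ± 32.3 (3.17-fold lower, adjusted p = 4.61e-07).

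Gmeb2, a factor that binds the glucocorticoid modulatory element, was a dim member. Its signals were 218, 339.8, 336 and 344 with DP and 54.9, 13.1, 15.1 and 85.6 with TSA then DP, and all of the latter lay under 100. The fitted change of -2.02 (SE 0.345, adjusted p = 0.000203) came from the probe set of highest mean: another passing probe set changed by 0.60, and the mean of both changed by -0.71 with an adjusted p of 0.159. Twist1, the basic helix-loop-helix factor of mesenchyme, had 1288, 1027, 1811 and 1445 with DP and 827, 800.4, 585 and 747 with both agents. The Twist1 groups did not overlap, and the fall of -0.85 (SE 0.155, adjusted p = 0.000373) was smaller than the members' median. Thap1, a zinc finger protein mutated in a hereditary dystonia, had among the smallest falls of the members. Its signals were 319, 503, 342 and 359.9 and 264, 204, 262 and 178 (-0.63, SE 0.217, adjusted p = 0.0309), and its adjusted p was 0.183 without line flox2 and 0.115 without triCH1flox2. It was 0.174 with the array series as a term, 0.0934 with no filter on low signal, 0.0563 with no variance trend and 0.0515 in a fit on all 16 arrays. In the arrays that chose it, Thap1 had gone from 339, 439, 404 and 513 to 100.4, 47.3, 175 and 156.

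The 10 chromatin proteins were Bend3, Zmynd8, Bcl7b, Hmgb2, Msl1, Pogz, Kmt2e, Epc1, Brd8 and Bptf. This group had a median change of -1.55 (range -2.15 to -0.98), and all 10 passed as lower. Bend3, a repressor found at heterochromatin, had DP signals of 598, 679, 909 and 819.6 and TSA then DP signals of 123, 176, 84.7 and 143 (4.44-fold lower, SE 0.214 on the log2 scale, adjusted p = 8.01e-07). All Bend3 signals with both agents lay under 200. Zmynd8, which reads acetylated and methylated histone tails through its bromodomain and neighbouring domains, had 2007, 2317, 2329.9 and 2332 with DP and 429.6, 558, 676 and 501 with both agents. The DP values of Zmynd8 were close to each other, and the fall was 3.92-fold (adjusted p = 2.28e-09). The other passing probe sets of Zmynd8 changed by -1.24, -1.28, -0.33 and -1.17, and the mean of all its passing probe sets fell 2.30-fold.

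Epc1 and Brd8 encode subunits of the NuA4/TIP60 acetyltransferase complex. Epc1 went from 1232, 1244, 1288 and 1383 with DP to 664, 395, 392 and 525 with TSA then DP (2.51-fold lower, adjusted p = 1.71e-06). Brd8, which carries a bromodomain, went from 1101, 897, 1298 and 1063 to 455, 356, 414 and 520.0 (2.34-fold lower, adjusted p = 2.98e-06). Its other passing probe sets changed by -0.76 and -0.77, and the mean of all its passing probe sets fell 1.89-fold. Both genes were lower in all 4 lines. Bptf, the largest subunit of the nucleosome remodelling factor NURF, had 2880.4 ± 132 with DP. It fell to 1434 ± 96.1 with both agents, 1.98-fold (adjusted p = 1.95e-07), and 3 other probe sets of the gene changed by -0.97, -0.67 and -0.33.

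The 8 genes of RNA synthesis and processing were Srek1, Rprd2, Yju2, Ints14, Nrde2, Polr3e, Rnpc3 and Pop7, and all 8 were called lower (median -1.28, range -1.97 to -0.95). Srek1, a splicing regulator with arginine and serine repeats, had DP signals of 1432, 1435, 1603 and 1305 and signals of 384, 275, 450.3 and 249 with TSA then DP. That is a 3.91-fold fall (adjusted p = 1.64e-08), and 4 other probe sets of Srek1 changed by -0.67 to -1.42, while the mean of all its passing probe sets fell 2.29-fold. On the arrays without DP its signals were 1558, 1550.4, 1322 and 1992 with vehicle and 311, 254, 452 and 454 with TSA. Polr3e, a subunit of RNA polymerase III, had 447, 694, 903 and 829 and 268, 316, 290.3 and 307 (2.16-fold lower, adjusted p = 8.88e-05). Its fall was smallest in flox1, whose DP signal was the lowest. Pop7, a protein subunit of RNase P and RNase MRP, went from 415, 629.8, 599 and 481 to 307, 239.5, 269.8 and 185 (1.93-fold lower, adjusted p = 0.000998). Both noncoding members passed as well: Chaserr, the RNA transcribed next to Chd2, changed by -1.31, and Mir22hg, the host transcript of miR-22, by -1.04.

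The other 11 members, whose products have another role or none assigned here, were Sertad4, B3gnt9, Ccdc102a, Tnrc18, Nbn, N4bp2, Btbd19, Ammecr1l, Trim59, Armc5 and Eva1a. Of these, 10 were called lower, with a median over all 11 of -1.45 (range -2.04 to -0.67). Sertad4 had DP signals of 2294, 1617, 1566 and 1779 and signals of 546, 329, 334 and 412 with TSA then DP (4.12-fold lower, adjusted p = 2.44e-09). Ccdc102a, a coiled-coil protein, went from 1527 ± 76.4 to 419.8 ± 138 (3.50-fold lower, adjusted p = 3.10e-07). B3gnt9, a glycosyltransferase, was dim: its signals were 466, 405, 252 and 513 with DP and 27.9, 131, 49.4 and 113 with both agents (-1.86, SE 0.286, adjusted p = 7.28e-05).

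Ammecr1l gave the highest signal of the members, with 7590.5, 7106, 8816 and 6628 on the DP arrays and signals of 3353, 3196, 4230.0 and 3085 with TSA then DP. Its fall was 2.16-fold and had the smallest error of the 61 members (-1.11, SE 0.0685, adjusted p = 4.24e-09). Trim59, a ubiquitin ligase of the tripartite motif family, went from 4207 ± 771 to 2035 ± 555 (2.08-fold lower, adjusted p = 1.39e-07). The mean of its passing probe sets fell 1.82-fold. Nbn, a subunit of the complex with Mre11 and Rad50 that senses DNA breaks, went from 898, 814, 1286 and 1066 to 254, 328, 361 and 398 (2.76-fold lower, adjusted p = 1.02e-06). Btbd19, a BTB domain protein, had 333 ± 28.1 and 121 ± 53.1 (2.31-fold lower, adjusted p = 0.00145).

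Armc5 and Eva1a had small or uneven falls. Armc5, an armadillo repeat protein, had DP signals of 299, 441, 350.2 and 468 and signals of 326, 169.5, 188 and 87.1 with TSA then DP. In flox1 the value with both agents was the higher one, and Armc5 was the only member above 0 in a line (0.11). It passed the test over all lines (-0.93, SE 0.274, adjusted p = 0.0136), but not without flox2 (adjusted p = 0.0626), without triCH1flox2 (0.122), with the array series as a term (0.0638), with no variance trend (0.0952) or with no filter on low signal (0.0500). Eva1a, which acts in autophagy, was the member that did not pass: its signals were 272, 204, 209.7 and 214 with DP and 176, 126, 128 and 73.4 with both agents (-0.67, SE 0.277, adjusted p = 0.0698). The Eva1a groups did not overlap, and all of its values with both agents lay under 200.

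Across the 61 members, the size of the fall with DP followed that of the fall without it with a Pearson r of 0.60, given as a description, since the points share the 4 lines and the second set of values chose the genes. The fall was smaller with DP in 46 members and larger in 15, and the median difference was 0.19. The members were taken for a large fall without DP, so nothing is read from that difference. At the limit of -1 the nearest members inside were Nbn, Trim59 and Ammecr1l, whose smallest fall in any line was -1.01 in each case. The nearest genes outside were Pnrc2 (-0.99), Psrc1 (-0.99) and Rai1 (-0.98).

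**Figure D4:**
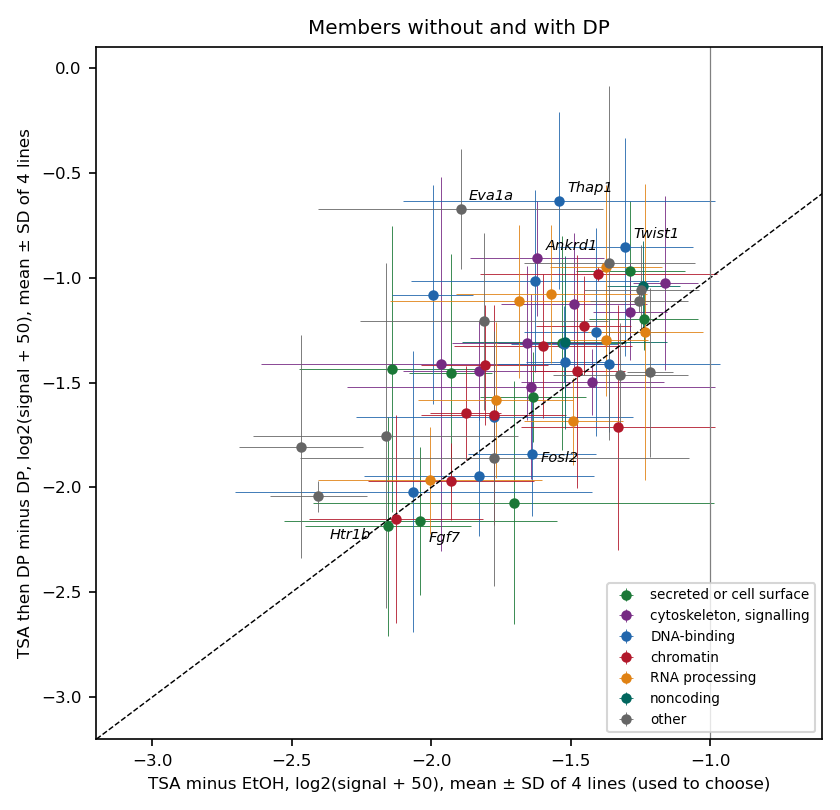
Mean change with TSA in the presence of DP (y axis) against the change that chose the members, TSA minus EtOH (x axis), both on the log2(signal + 50) scale, with bars of 1 SD over 4 lines, coloured by role. The dashed line marks equal changes; 46 of 61 members lie above it, where the fall with DP is the smaller one.

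DP alone left most members near the vehicle level. These values share arrays with the choice and were not tested. The flox1 values also rest on the vehicle array with the high Gapdh and actin ratios. In triCH1flox1 the DP and vehicle arrays were of different identifier series. The median change, DP minus EtOH, was -0.12 in flox1, -0.11 in flox2, -0.07 in triCH1flox1 and -0.09 in triCH1flox2, and the median over all genes was -0.03. The mean change was smaller than 0.3 in size in 46 members, -0.3 or lower in 12 and 0.3 or higher in 3. How many of all genes lay within these limits was not counted, so no contrast with other genes is read from these counts. All 4 lines were below 0 in 15 members and above 0 in 3 (Fosl2, Ints14 and Zbtb1), that is in 24.6% and 4.92% of the members. Over all genes these shares were 9.7% and 7.43%. The choice favoured genes with high EtOH values, which by itself lowers DP minus EtOH, so nothing is read from this difference in shares.

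The 5 members with the highest change by DP were Cavin4, Fosl2, Has2, Zbtb1 and B3gnt9. Cavin4 had vehicle signals of 619.6, 606, 649 and 431 and DP signals of 1189, 1085, 541 and 535, so the change was 0.89, 0.79, -0.24 and 0.28. Both control lines were higher with DP, and the triCH1 lines lay on both sides of 0. With TSA then DP its signals were 398, 253, 263 and 120.1, below the DP value in all lines (2.87-fold, adjusted p = 6.32e-06). Fosl2 stood above its vehicle level in all lines, and its change by DP was 0.40, 0.81, 0.31 and 0.15, largest in flox2. For Has2 the values were 0.78, -0.04, 0.75 and -0.07, so flox1 and triCH1flox1 were higher with DP and the other lines were not. Zbtb1 changed by 0.23, 0.35, 0.39 and 0.15 and B3gnt9 by 0.62, -0.09, -0.30 and 0.46.

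The 5 with the lowest change by DP were Ankrd1, Btbd19, Eva1a, Bptf and Polr3e. For Ankrd1 the change was -0.78, -0.77, -0.46 and -0.66, below 0 in all lines. With TSA alone its signals were 732, 359.9, 691 and 389, against 2162, 1511, 2319 and 1090.0 with vehicle. Bptf changed by -0.66, -0.24, -0.26 and -0.50 with DP, Btbd19 by -0.25, -0.50, -0.07 and -1.06, Eva1a by -0.05, -0.67, -0.77 and -0.27 and Polr3e by -1.14, -0.21, -0.30 and 0.04.

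Adding DP to TSA left most members near their TSA level. The median of TSA then DP minus TSA was 0.17, 0.10, 0.15 and 0.05 in the 4 lines, against 0.00 over all genes. In 11 of the 61 members (18%) all lines were above 0 and in 3 (4.92%) all were below. Over all 11481 genes these numbers were 856 (7.46%) and 887 (7.73%). The choice favoured genes with low TSA values, which by itself raises TSA then DP minus TSA, so nothing is read from this difference. Against vehicle, TSA then DP left all 61 members lower in all 4 lines, as it did 20.9% of all genes. The mean of the members' 4 medians was -1.47 (SD 0.0763). These comparisons share arrays with the choice and were not tested.

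**Figure D5:**
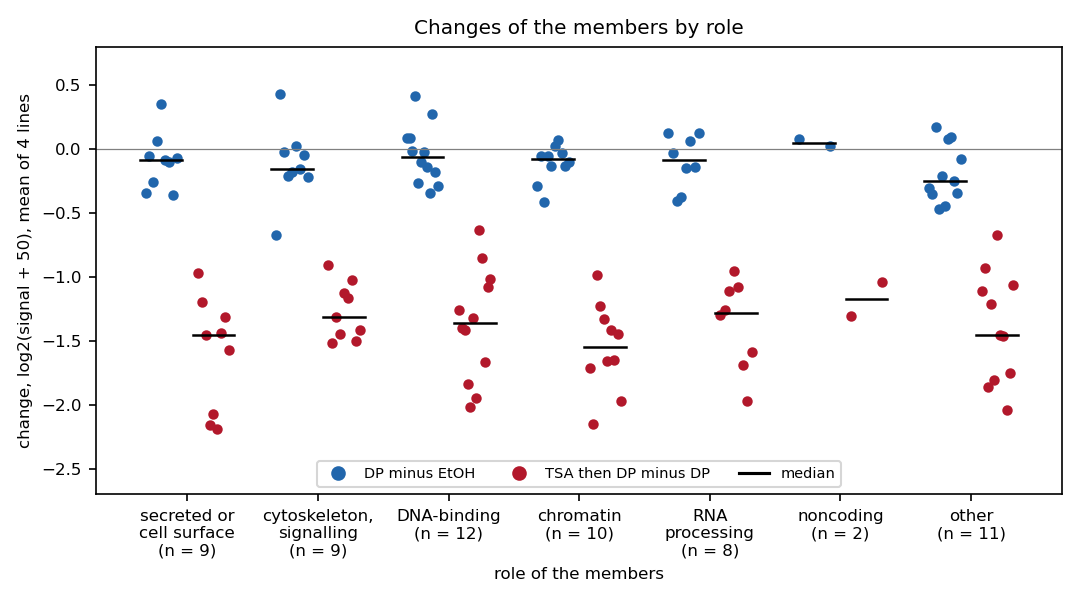
Mean change of each member over 4 lines on the log2(signal + 50) scale by role, for DP minus EtOH (blue) and TSA then DP minus DP (red), with black bars for the group medians. The red medians lie between -1.55 (chromatin) and -1.17 (noncoding), and the blue ones between -0.25 and 0.05.

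A further question was whether the fall with TSA depended on the CH1 domain. No member was called for a difference between the classes in the change TSA then DP minus DP (limma, 0 of 61; 12 genes or 0.105% of all), and 8 had an unadjusted p under 0.05, as did 7.45% of all genes. The fall was larger on average in the triCH1 lines in 36 members. In 21 of the 61 members (34.4%) the change was lower in both triCH1 lines than in both control lines, against 21.0% of all genes. The reverse held in 4 members (6.56%), against 16.9% of all genes. Rspo2 came nearest, with a difference of -0.76 (triCH1 minus control, SE 0.215, adjusted p = 0.303), and the fitted differences ran from -1.47 in Tns2, a focal adhesion protein, to 1.03 in Nrde2, which acts in RNA surveillance. Tns2, Nrde2 and the members named in the next sentences were picked after their values were seen. With 2 lines a class, this test leaves wide errors, and a missed threshold does not show that the classes were alike. Leaving out 1 line leaves a class with 1 line, so no call is read from those fits. The difference of Rspo2 was then -1.03 without flox1. That of Ereg was -1.18 without flox2, against -0.70 with all lines. For Tnrc18 it was -1.40 without triCH1flox1, against -0.64 with all lines.

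The levels of the members over the DP and TSA then DP arrays did not pass a test between the classes either (limma on 4 line means, 0 of 61 called, against 20 genes or 0.174% of all). Unadjusted p was under 0.05 in 6 members and in 8.62% of all genes. Cavin4 was the nearest, with a difference of -0.84 on the log2 scale (triCH1 minus control, SE 0.232, adjusted p = 0.360). Class cannot be told apart from sex in these lines. On the 8 triCH1 arrays Xist, which silences an X chromosome in female cells, reached 1751 to 5389 against 10.1 to 111 on the 8 control arrays. Eif2s3y of the Y chromosome reached 974 to 1519 on the control arrays against 8.90 to 82.9 on the triCH1 arrays.

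Where members belong to a known pathway, other genes of the pathway were called in both directions with TSA then DP minus DP. The lists are described by their counts, which include the members, and by the median over genes of the mean change. Over all 11481 genes, 14.4% were called lower and 20.7% higher. No list was tested against these shares. Of 100 chromatin regulators tested, 40 were lower, 13 higher and 47 did not pass, with a median change of -0.20, against 0.02 over all genes. Of these 100, 3 were members (Bptf, Brd8 and Epc1). Of 103 mesenchymal and patterning transcription factors, 31 were lower and 10 higher (median -0.25), with Twist1 as the member. Of 45 TGF-beta and BMP genes, 21 were lower and 6 higher (median -0.20), and none was a member.

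Of 53 genes of Wnt and Hippo signalling, which hold Ankrd1, Lats2 and Rspo2, 10 were lower and 8 higher (median -0.05). Of 51 secreted growth factors and cytokines, with Ereg and Fgf7, 11 were lower and 6 higher (median -0.13). The 82 genes of extracellular matrix and adhesion, with Adam19 and Has2, had 13 lower and 10 higher (median -0.05). Each of these lists held genes that passed in either direction, as did all genes tested (14.4% lower and 20.7% higher). Among 42 genes of growth factor feedback and early response, with Fosl2, 13 were lower and 13 higher (median -0.06). Of 60 genes of DNA repair, with Nbn, 6 were lower and 12 higher (median 0.03), and of 44 genes of G protein signalling, with Htr1b, 7 were lower and 12 higher (median -0.04).

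Other lists held no member, and the shares over all genes for them are again 14.4% lower and 20.7% higher. Of 52 genes of the cell cycle and DNA synthesis, 17 were lower and 4 higher (median -0.17). Of 18 genes known to fall with deacetylase inhibitors, 9 were lower and 2 higher (median -0.35). The ubiquitin ligases had 23 lower and 21 higher of 80 (median 0.00), the receptor tyrosine kinases 6 and 13 of 50 (median 0.19), and Notch and Hedgehog 4 and 7 of 25 (median -0.06). With the arrays centred on their median gene, more genes were lower in most lists, and also over all genes (2158 lower and 1886 higher). The chromatin regulators then had 49 lower and 10 higher. The counts for DNA repair became equal at 12 and 12, as did those for Notch and Hedgehog at 6 and 6.

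Features that the choice did not use are given beside those of all genes, with no test. The members' median gene span was 25.1 kb (quartiles 7.88 and 52.1), against 23.7 kb (10.0 and 56.6) for the genes tested. By RefSeq, 59 were protein-coding and 2 were long noncoding RNAs, and they lay on 19 chromosomes. Within 1 Mb of each other lay 3 pairs: Pafah1b1 and Mir22hg, Pogz and Rprd2, and B3gnt9 and Ctcf. Other probe sets, which the choice did not use, gave a further reading of the same arrays. In 38 members 64 other probe sets passed the filter, and 52 of them were below 0 with TSA then DP minus DP in all 4 lines, as were 2377 of all 11481 genes (20.7%). Their median change was -0.95 (range -2.06 to 0.60). A mean fall of at least 1 was seen in 28 of the 64, and 3 lay above -0.3, of Gmeb2, Zbtb21 and Rprd2.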

How the data were processed

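Total RNA of 4 fibroblast lines under 4 treatments was read on 16 Affymetrix mouse arrays without replicate cultures. Per the labels, the deposited intensity values are signals from Affymetrix's statistical algorithm with a scaling target of 500. A check of the deposited values gave 2% trimmed means of 500.0 on all arrays. The software version is not given in the sources used here. Precision is limited by the number of arrays. Of 45101 probe sets, 64 were controls and 34945 had 1 gene symbol. The 932 with several symbols and the 9160 with none were left out. Signals were taken to log2 after adding 50. A probe set passed with a signal of at least 200 on 2 or more arrays (19895 did), and the passing one of highest mean stood for its gene.

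The main test was limma 3.58.1 in R 4.3.3 on the 8 DP and TSA then DP arrays, with a line term and a variance trend (3 residual and 13.9 prior degrees of freedom). Classes were compared by the interaction (2 residual degrees of freedom) and on line means. P-values were adjusted by Benjamini-Hochberg over all 11481 genes, with 0.05 as threshold. The line term pairs arrays of 1 cell line, per the labels. Deviations of the DP and TSA then DP arrays of a line from their class means had correlations of 0.249 in the control and 0.320 in the triCH1 lines. The steps were tested on simulated data. Tables and figures were made with Python 3.11.15, pandas 2.3.3 and matplotlib 3.10.9.

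The members, roles and gene lists were chosen with earlier results of these data known. The text names the 12 members with the largest and the 6 with the smallest change in TSA then DP minus DP, the 8 with the highest signal on the EtOH arrays, the 3 genes nearest on either side of the limit, members called between the classes, the 5 highest and 5 lowest with DP, and up to 5 members of each gene list. Alternatives were other pseudocounts, filters, scalings, probe set rules and models, and each line left out.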

Additional observations from a re-analysis of the deposited data

How the results depend on the processing

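The count of 60 members lower with TSA then DP than with DP stayed between 58 and 61 under the alternatives that tested all members, and all 54 members tested under a signal minimum of 500 were called. Leaving out 1 line gave 58 to 60, with Eva1a not called in any of these fits, Armc5 and Thap1 lost without flox2 or without triCH1flox2, and Zbtb21 lost without triCH1flox1. With the array series as a term 58 were called, and Armc5, Thap1 and Eva1a were not. With no variance trend Armc5 and Thap1 were not. In that limma fit the adjusted p of Htr1b, Fgf7, Bend3, Has2 and Sertad4 ran from 0.00260 to 0.00645, against 2.44e-09 to 8.01e-07 in the main fit. The very small p-values of the main fit therefore depend on the variance trend. With no replicate block, that is without the line term that pairs the arrays of a line, 59 members were called, and Ankrd1 was lost (adjusted p = 0.0831). The median change of -1.39 became -1.14 with a pseudocount of 200 and -1.21 with the mean of all passing probe sets. With that mean many named falls became smaller, such as those of Enc1 (2.38-fold), Zbtb1 (2.70-fold) and Polr3e (1.90-fold). Those of Tnfrsf12a (3.44-fold), Epc1 (2.53-fold), Ccn4 (2.30-fold) and Ammecr1l (2.22-fold) became larger. The class difference of the change and the class difference in level were called in 0 members under all alternatives that kept the 4 lines. With 1 line left out a class rests on 1 line, and no call is read from those fits. The number of members chosen was 61, and it became 137 at a limit of -0.8, 33 at -1.2, 85 with a pseudocount of 16, 31 with one of 200, 109 without flox1, 80 without flox2, 83 without triCH1flox1 and 86 without triCH1flox2. With a pseudocount of 200 the change of Bend3 became -1.52, that of Gmeb2 -1.07 and that of B3gnt9 -1.12. Of 573 recomputed values of the 36 named members, 557 stayed as in the main fit, that is called or, for Eva1a, not called. None changed sign, while 13 lost their call (of Thap1, Armc5, Gmeb2 and Ankrd1) and 3 gained it (Eva1a). Dim members, with signals near or under 200 after TSA, have the least certain falls.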
